A study of Rattus norvegicus with 8 samples.

Results

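The comparison described here set primary rat chondrocytes that were given the MEK1/2 inhibitor U0126 and then TNFα against chondrocytes given only dimethyl sulfoxide (DMSO), the solvent of the inhibitor. It was chosen by the treatment labels alone and takes 4 of the 8 Affymetrix RAT230_2.0 arrays of the series, with 2 arrays for each of the treatments, from 2 independent experiments. Another 4 arrays, of cells given TNFα alone or U0126 alone, are set beside them only to show which genes returned to the untreated level and which passed the fold threshold only under the combination. The cells came from the femoral condyles of 1-day-old Sprague Dawley rats and were grown as monolayers. They were serum-starved, pretreated for 30 min with U0126 or DMSO, and then given 30 ng/ml TNFα or its carrier for 24 h, so the DMSO cultures also carried the solvent and the carrier. Each treatment has 1 array per experiment, and p-values over 2 experiments measure only the spread between those. Primary cells in monolayer differ from cartilage in its matrix, and the number of arrays limits the precision of every value.

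TNFα binds its receptors on chondrocytes and activates the transcription factor NF-κB and several kinase cascades. One of them runs through MEK1/2 to ERK1/2, which drive immediate early genes such as Egr1 and are restrained by feedback inhibitors such as the sprouty proteins and dual-specificity phosphatases. In cartilage, TNFα is known to raise chemokines and matrix-degrading proteases and to lower the genes of the matrix itself. U0126 binds MEK1/2 and blocks the activation of ERK1/2.

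The values are probe set intensities on a linear scale, each array centred on the median of all its probe sets. Array medians before centring lay between 368.0 and 370.9 for the 4 arrays compared. Wherever a treatment has a pair of values, experiment 1 comes first and experiment 2 second, and a fold is the ratio to the DMSO array of the same experiment. The chondrocyte marker Col2a1 read 30957 and 26695 with U0126 and TNFα and 32104 and 26758 with DMSO, and 0 of 10 measured chondrocyte markers passed the test between the treatments. The probe set of Col2a1 lies near the top of the intensity range, where a change is hard to read. The fibroblast collagen Col1a1, near the top as well, read 30737 and 34888 against 30287 and 34358. Of the 6 fibroblast markers 1 fell, Thy1 (0.591-fold, limma adjusted p = 0.0197), and the other 5, with log2 fold changes between -0.34 and 0.41, did not pass. The leukocyte marker Ptprc was dim, at 67.1 and 67.1 against 67.1 and 68.7, and the endothelial marker Pecam1 read 76.7 and 75.6 against 77.9 and 79.8. Levels of the other markers of these types varied. The leukocyte marker Cd14 read 965 and 862 against 962 and 1110, and Cd163 51.2 and 56.9 against 58.7 and 56.9. The endothelial marker Tek read 165 and 600 against 150 and 384. Of 14 leukocyte and 6 endothelial markers measured, 0 passed. The summed signal of 4 adipocyte markers was far higher in experiment 2, at 1703 and 13632 with U0126 and TNFα and 2568 and 17453 with DMSO. In a bulk sample, fewer cells of a type and less RNA per cell cannot be told apart.

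The combination raised more probe sets than it lowered. A limma model of treatment and experiment was fitted to log2 intensities from the whole series. In it, 969 of 31042 probe sets (3.12%) differed between U0126 with TNFα and DMSO at a Benjamini-Hochberg adjusted p under 0.05, 673 of them higher (2.17%) and 296 lower (0.954%). Over 14217 genes, 372 rose (2.62%) and 169 fell (1.19%). By the fold threshold of the study's methods, 0.54 on the log2 scale, 519 probe sets (1.67%) stood apart from DMSO the same way in each experiment, 412 of them higher (1.33%) and 107 lower (0.345%), and 409 met both criteria. Another 6 passed the fold threshold in opposite directions. The limma count moved with single arrays. It was 89 without U0126 and TNFα replicate 2, 133 without replicate 1, 147 without DMSO replicate 2, and 518 without either U0126 array, and 8 when the pairing of the experiments was left out of the model. With the threshold applied to 1 experiment, the fold count was 910 in experiment 1 and 1654 in experiment 2. Of the 167 probe sets chosen for closer description, 102 passed limma, and 25 of them passed whichever of the 8 arrays was left out.

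**Figure D1:**
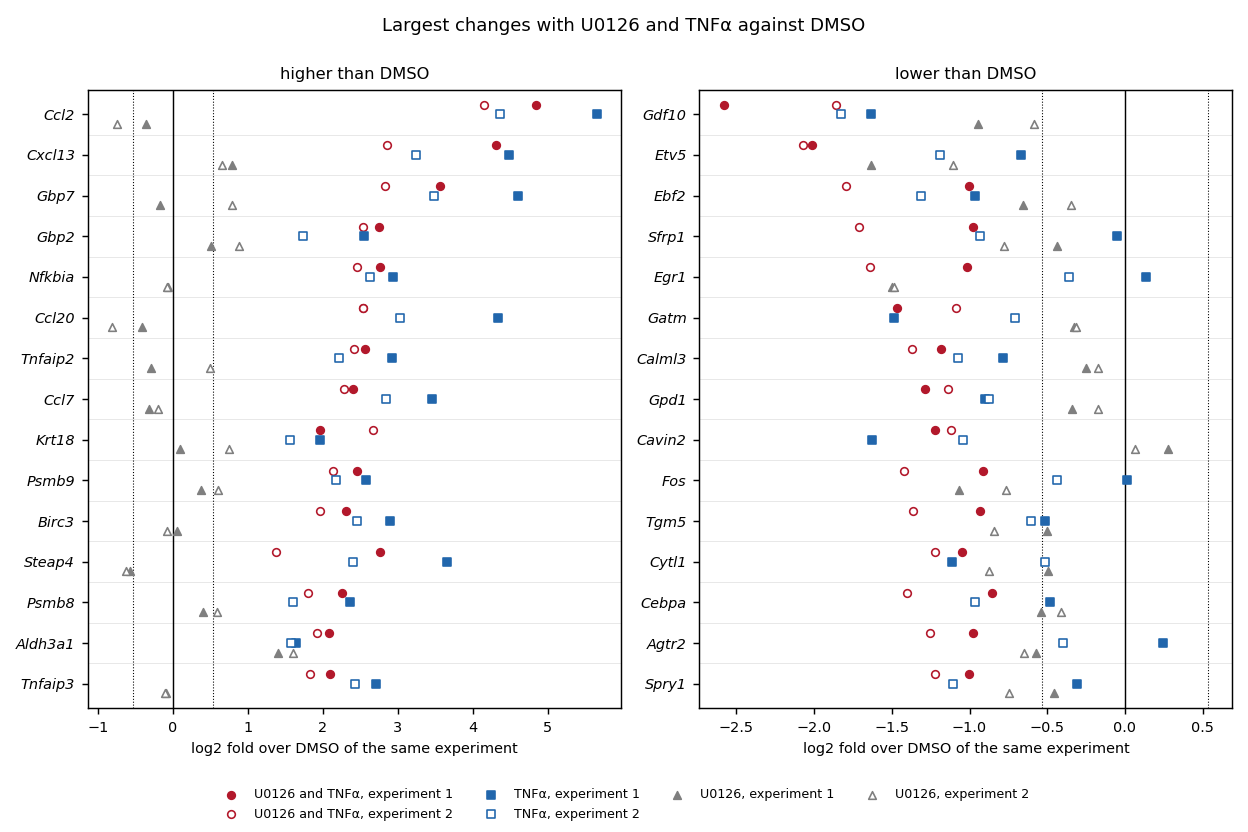
The 15 largest rises (left) and 15 largest falls (right) among probe sets of 1 gene that passed limma in U0126 and TNFα against DMSO, plotted as log2 fold over the DMSO array of the same experiment (x axis). Circles, squares and triangles stand for U0126 and TNFα, TNFα and U0126, filled for experiment 1 and open for experiment 2, and dotted lines mark the fold threshold. Ccl2 lies farthest to the right, with combination folds of 28.7 and 17.8, and the circles of the fallen genes lie left of 0 in both experiments.

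Chemokines led the rises. Ccl2, which draws monocytes to sites of inflammation, had intensities of 8005 and 14809 with U0126 and TNFα, against 279 and 833 with DMSO. Both treated cultures were far above both DMSO cultures, and the log2 fold change was 4.50 ± 0.26 (SE, limma, adjusted p = 0.000914). Cxcl13, a B cell attractant, read 6041 and 10302 against 303 and 1428 (log2 fold change 3.58 ± 0.36, limma adjusted p = 0.00586). The 2 experiments started from different DMSO levels of Cxcl13, and the rise was larger in experiment 1. Ccl7, another monocyte attractant, read 1464 and 3042 with the combination, against 277 and 626 with DMSO. Ccl20, which recruits cells bearing CCR6, read 2341 and 4811 with the combination, against 403 and 827 with DMSO. Their log2 fold changes were 2.34 ± 0.16 and 2.54 ± 0.30 (SE, limma, adjusted p = 0.00187 and 0.0103). Cxcl11 and Cxcl10, ligands of the T cell receptor CXCR3, and the membrane-bound chemokine Cx3cl1 rose by 1.73, 1.69 and 1.56 on the log2 scale (limma adjusted p = 0.000516, 0.00516 and 0.0111). Of 31 chemokines measured, 8 rose and 0 fell, and the median log2 fold change of the list was -0.00, against 3.81% of genes called and a median of -0.01 over all 14217 genes. Of the 8, 4 and 5 were left without U0126 and TNFα replicates 1 and 2. With TNFα alone 12 rose against DMSO, where 6.33% of all genes passed, 4.21% higher and 2.12% lower. The calls of Ccl2, Ccl7 and Cxcl11 held whichever of the 8 arrays was left out, while those of Cxcl10 and Cxcl13 held in 7 fits of 8, Cx3cl1 in 6 and Ccl20 in 5.

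Genes that NF-κB switches on, many of which feed back on the pathway, formed the list with the highest share of rises. Of 22 measured, 15 rose and 0 fell (68.2%, against 3.81% of all genes), with a median log2 fold change of 0.95. The count was 7 without U0126 and TNFα replicate 1, 8 without replicate 2 and 9 without DMSO replicate 2. Nfkbia, which encodes the inhibitor that holds NF-κB in the cytoplasm, read 7009 and 7313 with U0126 and TNFα and 1031 and 1328 with DMSO. All treated values lay over 5-fold above DMSO, and the log2 fold change was 2.61 ± 0.10 (limma adjusted p = 0.000516). Tnfaip3, the A20 protein that edits ubiquitin chains in the pathway, read 2511 and 2584 against 587 and 729, and Birc3, a ubiquitin ligase that blocks cell death, read 1765 and 1393 against 355 and 356. Their log2 fold changes were 1.96 ± 0.09 and 2.14 ± 0.11 (limma adjusted p = 0.000516 and 0.000636). The subunit genes Relb and Nfkb2 rose 3.18-fold and 2.49-fold (limma adjusted p = 0.000578 and 0.000516). All 5 of these calls held without any 1 of the 8 arrays. Other large rises were Tnfaip2 (889.7 and 1018 against 151 and 189.9), Steap4, a metalloreductase (3558 and 2025 against 524 and 782), and the keratin Krt18 (402 and 594 against 104 and 93.1), with limma adjusted p of 0.0103, 0.0345 and 0.00897. Their calls were lost without 3, 4 and 2 of the 8 arrays. With TNFα alone, 17 of the 22 listed genes rose and the median was 1.20. In U0126 with TNFα against TNFα alone, 0 of the 22 passed limma (0.366% of all genes did, 0.183% in each direction), and against U0126 alone 14 were higher (1.17% of all genes were higher and 0.513% lower, 1.68% in all).

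Promoter sequence is shown for the feedback genes Nfkbia and Tnfaip3 and the chemokine Ccl20, large rises that hold a known motif of their regulator NF-κB. They are not simply the most strongly raised, since Birc3 rose more than Tnfaip3, and Ccl2 and Cxcl13 rose more than Ccl20. The motif searched was GGNNTTTCC on both strands in the 250 bases before the start site, in RefSeq promoters of build GRCr8. It was found in 1529 of 27457 genes (5.57%), in 8 of the 21 listed NF-κB genes with a promoter entry, in 8 of 27 chemokines, and in 4 of 12 among the 15 largest rises, which were Ccl20, Nfkbia, Steap4 and Tnfaip3. With 1 more G required before the first, the form that was searched first, it was found in 376 genes (1.37%), 5 of the 21, 5 of the 27 and the same 4 of 12. Both forms were chosen after the values had been seen. The 150 bases before the start site follow for Nfkbia (chr6:78597073-78597222, minus strand), Tnfaip3 (chr1:15543980-15544129, minus strand) and Ccl20 (chr9:91837009-91837158, plus strand), with the motif in capitals, which begins 31 bases before the start site in Nfkbia, 67 and 55 in Tnfaip3 and 89 in Ccl20.
Nfkbia: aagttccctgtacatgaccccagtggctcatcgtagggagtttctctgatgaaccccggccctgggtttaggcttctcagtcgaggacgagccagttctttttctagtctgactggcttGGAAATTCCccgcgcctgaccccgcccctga
Tnfaip3: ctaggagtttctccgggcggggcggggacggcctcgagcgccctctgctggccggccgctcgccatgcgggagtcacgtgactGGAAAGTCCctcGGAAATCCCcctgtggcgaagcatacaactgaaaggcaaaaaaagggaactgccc
Ccl20: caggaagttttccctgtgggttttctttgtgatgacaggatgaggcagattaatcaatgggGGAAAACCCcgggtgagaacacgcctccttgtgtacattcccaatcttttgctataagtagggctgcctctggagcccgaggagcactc
A match is a stretch of letters and does not show binding in these cells.

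Most measured genes of antigen presentation rose, and so did a few of the interferon response. MHC class I molecules display peptides that the immunoproteasome cuts and the TAP transporter carries into the endoplasmic reticulum. Of 17 measured genes of this pathway 11 rose and 0 fell (64.7%, against 3.81% of all genes), with a median log2 fold change of 0.80. Leaving out either array of U0126 and TNFα cut the count to 4, and leaving out DMSO replicate 2 to 6. Psmb9, an immunoproteasome subunit, read 3119 and 6156 with U0126 and TNFα, against 569.5 and 1400.4 with DMSO, and another subunit, Psmb8, read 1889 and 3409.6 against 396 and 979. In each experiment both stood above DMSO by over 3-fold, and the log2 fold changes were 2.29 ± 0.15 and 2.03 ± 0.21 (limma adjusted p = 0.00129 and 0.00646). Tap1 rose 2.24-fold, Psmb10 3.05-fold and the proteasome activator Psme2 1.89-fold (limma adjusted p = 0.00161, 0.00205 and 0.00233). These 3 calls and that of Psmb9 held without any 1 array, and that of Psmb8 in 6 fits of 8. Of the 4 class I chain genes of the RT1 region, RT1-M3-1 and RT1-CE16 rose by 0.80 and 0.42 on the log2 scale (limma adjusted p = 0.00616 and 0.0485), and RT1-CE10 and RT1-CE5, at 0.36 and 0.29, did not pass. Such genes are close copies of each other, so a probe set may read more than 1 of them. Of 29 interferon-stimulated genes measured, 6 rose and 0 fell (20.7%), 23 did not pass, and the median was 0.31. The 6 became 2 and 1 without U0126 and TNFα replicates 1 and 2, and 2 without DMSO replicate 2. The guanylate-binding protein Gbp7 read 1194 and 1653 with the combination and 101 and 233 with DMSO. Its relative Gbp2 read 753 and 3133 with the combination and 112 and 539 with DMSO. Gbp7 rose by 3.19 ± 0.43 and Gbp2 by 2.65 ± 0.24 on the log2 scale (limma adjusted p = 0.016 and 0.00408), with 4 and 6 of 8 calls kept when an array was left out. Irf1, the transcription factor that drives many of these genes, rose 3.63-fold (limma adjusted p = 0.000516) and passed without any 1 array.

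Cytokines and their receptors rose in part. Among 41 interleukins, TNF family members and receptors measured, 9 rose and 1 fell (24.4%, against 3.81% of all genes), and the median was 0.01. The rises numbered 1 without U0126 and TNFα replicate 1, 2 without replicate 2 and 3 without DMSO replicate 2. The death receptor Fas read 3024 and 2922 with U0126 and TNFα and 1265 and 906 with DMSO (log2 fold change 1.47 ± 0.12, limma adjusted p = 0.00272), and the call held without any 1 array. The macrophage growth factor Csf1 read 6399 and 6182 with the combination, against 2909 and 3519 with DMSO. Il34, which binds the same receptor, read 559 and 529 with the combination, against 215 and 333 with DMSO. Their log2 fold changes were 0.98 ± 0.11 and 1.02 (limma adjusted p = 0.00873 and 0.0199). Complement C3 read 12774 and 14183 with the combination and 1441 and 4732 with DMSO, with folds of 8.87 and 3.0, and the log2 fold change of 2.37 ± 0.55 did not pass (limma adjusted p = 0.0776). The complement regulator Cd55 was the 1 gene that passed of 18 measured in complement (5.56%), at 2.33-fold (limma adjusted p = 0.00464).

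A further group of rises was made up of genes for the metabolism of foreign compounds and for oxidant defence. The aryl hydrocarbon receptor binds planar chemicals and switches on enzymes that oxidise and conjugate them, and the factor NRF2 switches on enzymes that make and recycle glutathione and thioredoxin. Of 11 genes measured on the aryl hydrocarbon receptor target list, 6 rose and 0 fell (median 0.89), and of 22 genes of the NRF2 type, 11 rose and 0 fell (median 0.43). These are 54.5% and 50% of the genes, against 3.81% of all genes. The first count was 5 or 6 whichever array was left out, while the second was 4 without either array of U0126 and TNFα and 6 without DMSO replicate 2. Nqo1, a quinone reductase on both lists, read 15552 and 14867 with U0126 and TNFα, 4162 and 3898 with TNFα alone, 16263 and 15575 with U0126 alone and 4009.8 and 5011 with DMSO. The 4 cultures with the inhibitor stood far above the 4 without it, with no overlap. Ahrr, the repressor of the receptor, read 775 and 908 with the combination, 253 and 236 with TNFα alone, 800.3 and 916 with U0126 alone and 242 and 279 with DMSO. Nqo1 and Ahrr differed from DMSO by 1.76 ± 0.11 and 1.69 ± 0.09 on the log2 scale (limma adjusted p = 0.00112 and 0.000914). Against TNFα alone they were 1.92 and 1.78 higher (limma adjusted p = 0.00842 and 0.00842), and against U0126 alone the differences were -0.07 and -0.03, with 95% intervals of -0.32 to 0.19 and -0.25 to 0.19. Cyp1b1, a monooxygenase, and Aldh3a1, an aldehyde dehydrogenase, were raised by each agent alone too. Cyp1b1 read 15129.9 and 17853 with U0126 and TNFα, 7196 and 9329 with TNFα alone, 9979 and 13750.5 with U0126 alone and 3443 and 6142 with DMSO. Aldh3a1 read 1573 and 1473 with U0126 and TNFα, 1156 and 1159 with TNFα alone, 979 and 1178 with U0126 alone and 370.0 and 388 with DMSO. In both genes and both experiments the combination gave the highest of the 4 values, and against DMSO the log2 fold changes were 1.84 ± 0.13 and 2.01 ± 0.09 (limma adjusted p = 0.00206 and 0.000516). On the NRF2 list, Gclc, which starts glutathione synthesis, Srxn1, which repairs peroxiredoxins, and Pir rose 1.9-fold, 1.97-fold and 2.98-fold (limma adjusted p = 0.00233, 0.00206 and 0.000516). The calls of all 7 genes named here held without any 1 array. U0126 alone raised 6 of the 11 and 4 of the 22 against DMSO, where 0.0914% of all genes passed (0.058% of probe sets), all higher. Against U0126 alone, 0 of the 6 receptor targets that rose passed limma, with adjusted p of 0.0617 for Aldh3a1 and 0.176 for Cyp1b1.

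Cyp1a1, the classical target of the receptor, did not keep the level it had with U0126 alone. Cyp1a1, Il34 and Ier3 were chosen for description after their values were seen. It read 454 and 508 with U0126 and TNFα, 331 and 283 with TNFα alone, 889 and 1226 with U0126 alone and 364 and 343 with DMSO. It was -1.12 on the log2 scale against U0126 alone (limma adjusted p = 0.0246) and did not pass against DMSO (log2 fold change 0.44 ± 0.15, adjusted p = 0.161).

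The core of the sequence that the receptor binds, GCGTG on either strand, was searched in the 250 bases before the start site. It was present in 9 of the 12 genes of the target list with a promoter entry. The 9 include Arnt, which is on the list but encodes the partner of the receptor. The core was present in 7802 of 27457 genes (28.4%), so on its own it is a common stretch. Ahrr (chr1:30822069-30822218, plus strand) holds 3 copies in the 150 bases shown and Cyp1b1 (chr6:21094415-21094564, plus strand) holds 2, in capitals here, from RefSeq build GRCr8.
Ahrr: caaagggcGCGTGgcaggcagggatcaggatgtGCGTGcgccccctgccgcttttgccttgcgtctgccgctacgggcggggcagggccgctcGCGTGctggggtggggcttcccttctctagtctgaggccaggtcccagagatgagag
Cyp1b1: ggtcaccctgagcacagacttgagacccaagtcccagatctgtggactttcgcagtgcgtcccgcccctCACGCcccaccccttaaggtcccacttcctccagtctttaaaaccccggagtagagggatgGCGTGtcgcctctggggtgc
In Ahrr the first copy begins 142 bases before the start site and the last 57, and in Cyp1b1 the copies begin 81 and 20 bases before it.

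**Figure D2:**
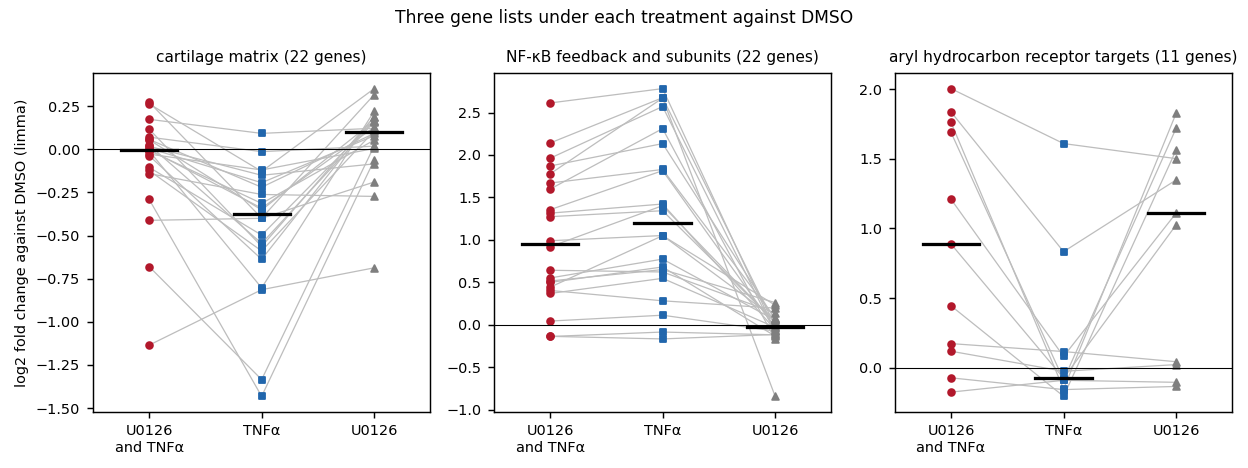
Log2 fold change against DMSO (limma, y axis) of each measured gene of the cartilage matrix list, the NF-κB list and the aryl hydrocarbon receptor target list (panels) with U0126 and TNFα, TNFα and U0126 (x axis). Grey lines join 1 gene, and black bars are list medians: -0.00, -0.38 and 0.10 for cartilage matrix, 0.95, 1.20 and -0.02 for NF-κB, and 0.89, -0.08 and 1.11 for receptor targets.

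Genes driven by ERK signalling were among the falls. Of 22 such genes measured, 7 fell and 1 rose (36.4% called, against 3.81% of all genes), with a median log2 fold change of -0.21. The falls depended on single arrays, with 2 left without U0126 and TNFα replicate 1, and 0 without replicate 2 or without DMSO replicate 2. Egr1, the zinc finger factor that ERK induces within minutes, read 1762 and 1489.7 with U0126 and TNFα, 3923 and 3618 with TNFα alone, 1263 and 1659.6 with U0126 alone and 3571 and 4644 with DMSO. The 4 cultures with the inhibitor all lay below the 4 without it. Etv5, an ETS factor whose gene tracks ERK activity, read 316 and 642 with the combination and 1276 and 2697 with DMSO, with folds of 0.248 and 0.238. The log2 fold changes were -1.33 ± 0.16 for Egr1 and -2.04 ± 0.21 for Etv5 (limma adjusted p = 0.0124 and 0.00611). Egr2 fell to 0.519-fold of DMSO, the phosphatase Dusp6 to 0.55-fold and the feedback inhibitor Spry1 to 0.462-fold (limma adjusted p = 0.00562, 0.0127 and 0.0225). Of the listed genes, Egr2 also passed against TNFα alone (-0.78 on the log2 scale, limma adjusted p = 0.0397). These calls were lost when some arrays were left out, holding in 6 fits of 8 for Egr1 and Egr2, 5 for Etv5 and Dusp6 and 3 for Spry1. The 2 probe sets of Fos disagreed. The probe set among the largest falls read 238 and 172 against 446 and 459 (log2 fold change -1.16 ± 0.19, limma adjusted p = 0.0293). The other read 358.8 and 313.8 against 361.6 and 407.5 and did not pass. The exception that rose, Ier3, read 4454 and 2972 against 1565 and 1199 (2.66-fold, limma adjusted p = 0.0197).

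Some genes of secreted signals and their antagonists fell. Gdf10, a BMP-family ligand, had the largest fall of the probe sets that passed. It read 199.5 and 609.7 with U0126 and TNFα, 385 and 624 with TNFα alone, 620.1 and 1479 with U0126 alone and 1196 and 2216 with DMSO. Both single agents gave values between the combination and DMSO in both experiments, and the log2 fold change of the combination was -2.22 ± 0.20 (limma adjusted p = 0.00394), a call that held without any 1 array. Sfrp1, a secreted antagonist of Wnt ligands, read 596 and 963 with the combination, against 1174 and 3151 with DMSO. Its relative Sfrp4 read 373 and 499.9 with the combination, against 651 and 1022 with DMSO. Their log2 fold changes were -1.34 ± 0.19 and -0.92 ± 0.09 (limma adjusted p = 0.0192 and 0.00526). Agtr2, the type 2 angiotensin receptor, read 1299 and 2032 with the combination, 3031 and 3679 with TNFα alone, 1725 and 3090.2 with U0126 alone and 2561 and 4857 with DMSO (combination against DMSO, log2 fold change -1.12 ± 0.15, limma adjusted p = 0.0143). Gatm, which makes the precursor of creatine, and the calmodulin-like gene Calml3 fell to 0.412-fold and 0.413-fold of DMSO (limma adjusted p = 0.0184 and 0.00233). Tgm5, a transglutaminase, and Cytl1, a cytokine-like protein abundant in cartilage, fell to 0.451-fold and 0.455-fold (limma adjusted p = 0.00544 and 0.0388). In the list of 38 BMP, TGF-β and Wnt signals 34 did not pass, 3 fell and 1 rose (10.5% called, against 3.81% of all genes), the median being -0.06. The 1 that rose was the BMP antagonist Grem1, at 1.58-fold (limma adjusted p = 0.0171). With 1 array left out, Calml3 passed in 8 fits of 8, Tgm5 in 7, Sfrp4 in 6, Sfrp1, Agtr2 and Grem1 in 5, and Gatm and Cytl1 in 4. Either array of U0126 and TNFα left out reduced the 3 falls of that list to 1. Of 35 FGF, EGF and IGF signals 3 rose and 3 fell (17.1%), and 0 passed without either of these arrays or without DMSO replicate 2, with Igfbp3, a carrier of insulin-like growth factors, at 1.93-fold and Fgf18, a cartilage growth factor, at 0.692-fold (limma adjusted p = 0.013 and 0.0456).

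Some of the falls were in genes known from fat cells. Gpd1, which makes glycerol phosphate for lipid storage, read 191 and 2158 with U0126 and TNFα and 466 and 4761 with DMSO (log2 fold change -1.21 ± 0.07, limma adjusted p = 0.000914). The level was about 10 times higher in experiment 2, and the folds were 0.411 and 0.453. Another probe set of Gpd1 read 256 and 741 with the combination and 346 and 895 with DMSO, and did not pass (log2 fold change -0.35 ± 0.09, limma adjusted p = 0.0831). The genes of the 15 largest falls had 11 other probe sets, of which 3 fell too and 8 were lower without passing, with log2 fold changes as small as -0.07 for Gatm and -0.19 for Etv5. Cebpa, a factor of adipocyte differentiation, read 353 and 960.1 against 639 and 2534. Ebf2, a regulator of brown fat identity, read 29.9 and 83.3 against 59.9 and 289, and the caveolar gene Cavin2 read 75.6 and 511 against 177 and 1110.4. Their log2 fold changes were -1.13 ± 0.17, -1.40 ± 0.23 and -1.17 ± 0.17 (limma adjusted p = 0.022, 0.0298 and 0.0189). All 3 were brighter in experiment 2 with the combination and with DMSO, and their calls held in 5, 5 and 4 fits of 8. Of the 4 adipocyte markers, Plin1 passed (272 and 2092 against 397 and 3343, limma adjusted p = 0.0167), and 3 were lower in both experiments, as were 4888 of all 14217 genes. The list had a median log2 fold change of -0.53, against summed signals of 1703 and 13632 with the combination and 2568 and 17453 with DMSO. The part of adipocyte-like RNA in these falls was not tested.

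To find the genes that returned to the untreated level, the probe sets that TNFα alone changed were followed into the combination. They numbered 573, of which TNFα raised 465 and lowered 108, and had to pass both limma (1611 of 31042, 5.19%, with 3.41% higher and 1.78% lower) and the fold threshold in each experiment (2.02%, with 1.65% higher and 0.37% lower). Of the raised, 79 (17.0%) were within the fold threshold of DMSO in both experiments with U0126 and TNFα, and 275 (59.1%) were still above it in both. Another 110 were above it in 1 experiment only, and 1 was past it only on the side below DMSO. Of the lowered, 47 (43.5%) were within it in both, 28 (25.9%) past it in both and 33 in 1. Over all probe sets, 93.4% were within it in both. The median fold of the raised probe sets was 1.66 with the combination and 2.11 with TNFα alone, and that of the lowered 0.707 and 0.577. A fold inside the threshold can still hide a difference, so a stricter set was taken, in which the 95% interval of the log2 fold change against DMSO lay inside the fold threshold. It held 39 raised probe sets (8.39%, 27 named genes) and 31 lowered (28.7%, 21 named genes), where 89.4% of all probe sets met it. These counts are a description, since both comparisons use the same DMSO arrays and an extreme DMSO value moves them together. Where an array is left out, the fold rule of each comparison that uses its treatment rests on 1 experiment and is met more easily. The counts that follow are therefore not under the same rule. The count within the fold, 79 and 47 of 573, was 622 of 1238 without TNFα replicate 2, without TNFα replicate 1 it was 260 of 646 and without DMSO replicate 2 it was 225 of 564.

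**Figure D3:**
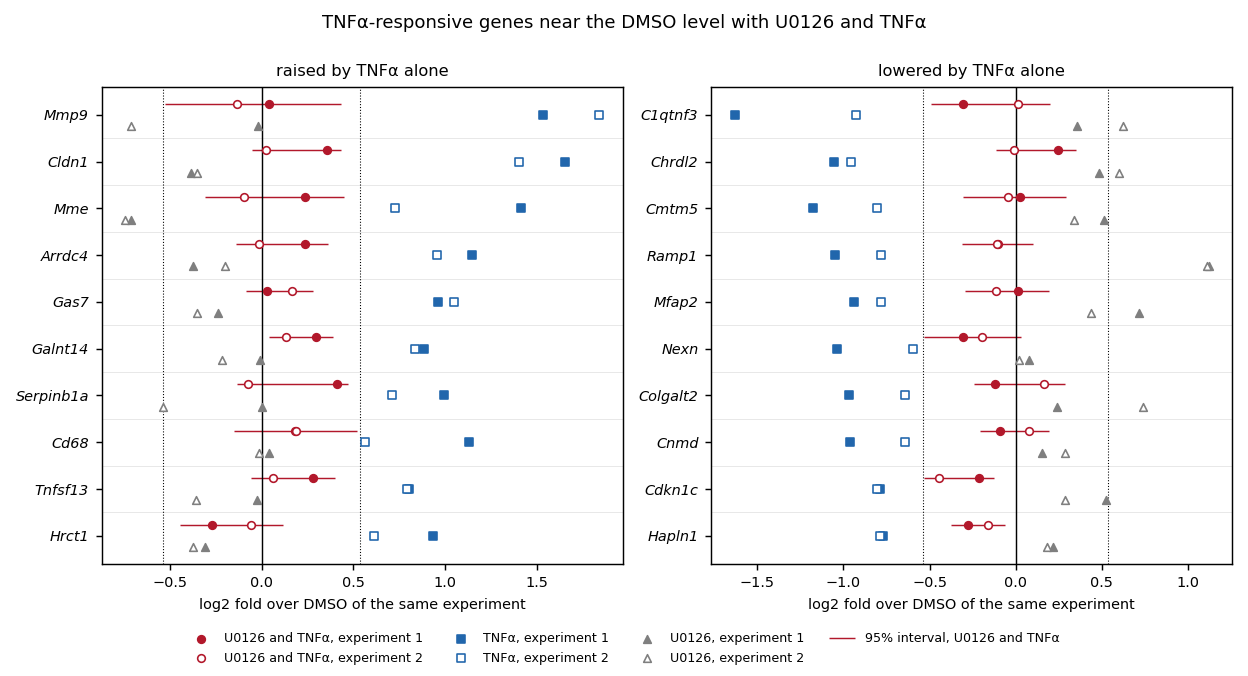
TNFα-responsive genes whose 95% interval with U0126 and TNFα lay inside the fold threshold around DMSO (dotted lines), the 10 raised (left) and 10 lowered (right) that TNFα alone changed most, on the log2 fold scale over the DMSO array of the same experiment (x axis). Filled and open symbols are experiments 1 and 2, and the red line is the limma 95% interval of the combination. The circles lie near 0, while the squares of TNFα alone lie outside the dotted lines, up to 3.15-fold for Cldn1 (experiment 1) and 3.59-fold for Mmp9 (experiment 2).

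Among the raised genes of the stricter set, the gelatinase Mmp9 had the largest response to TNFα alone. It read 94.1 and 113 with U0126 and TNFα, 265 and 444 with TNFα alone, 90 and 75.6 with U0126 alone and 91.4 and 124 with DMSO. The combination lay between the DMSO values of the 2 experiments, and its log2 fold change against DMSO was -0.05 with a 95% interval of -0.53 to 0.43. The tight junction gene Cldn1 read 55.9 and 325 with the combination, 137 and 848 with TNFα alone, 33.5 and 251 with U0126 alone and 43.6 and 320.3 with DMSO (interval -0.05 to 0.43). It was dim in experiment 1 and brighter in experiment 2, with the same pattern in each. Mme, the membrane peptidase neprilysin, read 2801 and 4439 with U0126 and TNFα, 6348 and 7857 with TNFα alone, 1452 and 2834 with U0126 alone and 2377 and 4741 with DMSO. The arrestin-like Arrdc4 read 325 and 342 with U0126 and TNFα, 612 and 669.5 with TNFα alone, 213 and 300.4 with U0126 alone and 276 and 344 with DMSO. U0126 alone gave the lowest value of the 4 in both genes and in both experiments. Gas7 had folds of 1.02 and 1.12 with the combination and 1.95 and 2.07 with TNFα alone. Galnt14, which starts O-linked glycans, had folds of 1.23 and 1.1 with the combination and 1.85 and 1.79 with TNFα alone. Serpinb1a, an inhibitor of neutrophil proteases, the lysosomal glycoprotein Cd68, the TNF family ligand Tnfsf13 and Hrct1 completed the 10, with mean folds of 1.12, 1.14, 1.13 and 0.893 for the combination against 1.81, 1.8, 1.74 and 1.71 for TNFα. Of the 39 raised probe sets, 7 passed limma in U0126 with TNFα against TNFα alone (0.254% of all probe sets did, 0.129% higher and 0.126% lower). In 20 of the 39, U0126 alone lay below DMSO in both experiments. The median fold with U0126 alone was 0.947 in the 39 and 1.03 in all 465 that TNFα raised. The set was chosen for a combination near DMSO, so these values are a description.

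The lowered genes that returned included several made by chondrocytes, among them Acan, Cnmd, Hapln1, Snorc and S100b. C1qtnf3, a secreted C1q-domain protein, read 5352 and 2703 with U0126 and TNFα, 2137 and 1406 with TNFα alone, 8455 and 4121 with U0126 alone and 6620.3 and 2678 with DMSO. Chrdl2, a BMP antagonist, read 467 and 288 with the combination, 189.6 and 149.8 with TNFα alone, 551 and 439 with U0126 alone and 394 and 290.1 with DMSO. In both, the order was TNFα lowest, then the combination and DMSO close together, and U0126 highest. The log2 fold changes of the combination were -0.15 (95% interval -0.49 to 0.20) and 0.12 (-0.12 to 0.35). Cnmd, the cartilage glycoprotein chondromodulin, read 16469 and 8533 with U0126 and TNFα, 9005 and 5189 with TNFα alone, 19507 and 9892 with U0126 alone and 17550.4 and 8104 with DMSO. The link protein Hapln1, which fixes aggrecan to hyaluronan, read 5928 and 3621 with U0126 and TNFα, 4215 and 2342 with TNFα alone, 8362 and 4599 with U0126 alone and 7187 and 4051 with DMSO on the probe set that TNFα lowered most. The 95% intervals of the combination against DMSO were -0.21 to 0.19 and -0.38 to -0.06. The other 2 probe sets of Hapln1, both brighter, had intervals that spanned 0, -0.20 to 0.25 and -0.32 to 0.19. The microfibril gene Mfap2, the actin-binding Nexn, the collagen galactosyltransferase Colgalt2, Cmtm5 and the cell cycle inhibitor Cdkn1c had combination folds between 0.734 and 1.12 in single experiments, and mean folds of 0.551, 0.568, 0.572, 0.503 and 0.576 with TNFα alone. The probe sets of Nexn disagreed, since another read 252 and 303 with the combination and 354 and 431.0 with DMSO and passed limma below DMSO (-0.50 ± 0.08 on the log2 scale, adjusted p = 0.03). Of the 31 lowered probe sets, 10 passed limma in U0126 with TNFα against TNFα alone, and in 29 U0126 alone lay above DMSO in both experiments. The median fold with U0126 alone was 1.21 in the 31 and 1.08 in all 108 that TNFα lowered. The set was chosen for a combination near DMSO, which favours an opposite value with U0126 alone, so these values are a description.

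Ramp1, a subunit of the receptors for calcitonin gene-related peptide, had opposite single effects. It read 429 and 633 with U0126 and TNFα, 222 and 397 with TNFα alone, 1002 and 1471 with U0126 alone and 461 and 682 with DMSO. U0126 alone raised it 2.16-fold (limma adjusted p = 0.0175) and TNFα alone lowered it to 0.53-fold (limma adjusted p = 0.00328), and the combination had folds of 0.931 and 0.928.

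Of 22 cartilage matrix genes measured, 0 rose and 3 fell with the combination. The falls were 13.6% of the list, against 1.19% of all genes, and the median log2 fold change was -0.00. The 95% interval was inside the fold threshold for 16 (72.7%), a lower share than the 89.8% of all genes. With TNFα alone 11 fell, where 2.12% of all genes did, and the median was -0.38. Aggrecan (Acan), the main proteoglycan of cartilage, read 23017 and 12442 with U0126 and TNFα, 14421 and 7741 with TNFα alone, 23393 and 13509 with U0126 alone and 21577 and 11287 with DMSO. Its log2 fold change was 0.12 ± 0.06 against DMSO (limma adjusted p = 0.327) and 0.68 ± 0.06 against TNFα alone (adjusted p = 0.0215). Acan and Cnmd were the members that passed limma against TNFα alone. The 5 type IX and XI collagen genes, Comp, Matn1 and Fmod read between 7365 and 24962 on the 4 arrays compared, with combination folds from 0.886 to 1.12 in single experiments. The 3 that fell were Mia, an extracellular protein made by chondrocytes, Chad, a leucine-rich matrix protein, and Cytl1. Mia read 3230.1 and 1888 with the combination, 1887 and 1303 with TNFα alone, 5547 and 2896 with U0126 alone and 5698 and 2746 with DMSO, so the combination lay between TNFα alone and DMSO (log2 fold change against DMSO -0.68 ± 0.12, limma adjusted p = 0.0365). Cytl1 read 2253 and 1749 with U0126 and TNFα, 2153 and 2857 with TNFα alone, 3295 and 2225 with U0126 alone and 4653 and 4084 with DMSO, below DMSO with every treatment. Chad was dim, at 142 and 113 against 202 and 141. Their calls held in 2, 4 and 2 of 8 fits for Mia, Cytl1 and Chad.

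Other TNFα-responsive genes lay between TNFα alone and DMSO. Ccl5, an attractant of T cells and monocytes, read 434 and 681 with U0126 and TNFα, 1165 and 2442 with TNFα alone, 337 and 379 with U0126 alone and 338 and 465 with DMSO. The combination was below TNFα alone (-1.63 on the log2 scale, limma adjusted p = 0.0381) and did not pass against DMSO (0.46 ± 0.18, adjusted p = 0.208). Ass1, which supplies arginine for nitric oxide synthesis, read 294 and 378 with the combination, 885 and 791 with TNFα alone, 202 and 198 with U0126 alone and 175 and 215 with DMSO. It passed both against DMSO (0.78 ± 0.13, limma adjusted p = 0.0334) and against TNFα alone (-1.33, adjusted p = 0.0275). The interferon-γ receptor chain Ifngr1 did the same, at 1.39-fold of DMSO (limma adjusted p = 0.0125) and -0.50 on the log2 scale against TNFα (adjusted p = 0.0394).

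For the secreted proteases the spread between experiments was wide. Collagenase Mmp13 read 2285 and 1185 with U0126 and TNFα, 17892 and 5810.0 with TNFα alone, 378 and 666 with U0126 alone and 1177 and 1912 with DMSO. With the combination it was above DMSO in experiment 1 and below it in experiment 2 (folds of 1.94 and 0.62), and the 95% interval of the log2 fold change, -1.21 to 1.48, is too wide to say that it returned. Mmp12, the macrophage elastase, read 209 and 218 with the combination, 814 and 551 with TNFα alone, 144 and 163 with U0126 alone and 162 and 326 with DMSO (interval -0.83 to 0.62). Stromelysin Mmp3 read 8713 and 3628 with U0126 and TNFα, 25622 and 11191 with TNFα alone, 389.8 and 895 with U0126 alone and 1089 and 2499 with DMSO (interval 0.21 to 3.32). Neither passed against DMSO (limma adjusted p = 0.869 and 0.181). Urokinase, Plau, rose. It read 2064 and 1451 with the combination, 1374 and 1317 with TNFα alone, 951 and 706 with U0126 alone and 661 and 549 with DMSO, the combination being highest in both experiments (log2 fold change 1.52 ± 0.11, limma adjusted p = 0.00205), and it passed without any 1 array. Of 40 proteases and inhibitors measured, 2 rose and 2 fell with the combination (10% called, against 3.81% of all genes). The falls were Adamts9 and Mmp16 (0.658-fold and 0.693-fold, limma adjusted p = 0.0233 and 0.0154). With TNFα alone 12 of the 40 rose, where 4.21% of all genes did.

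The last question was which genes passed the fold threshold only under the combination. They were taken as the probe sets that passed limma and the fold threshold in both experiments with U0126 and TNFα while TNFα alone and U0126 alone each stayed under that threshold in both. There were 40, 19 higher and 21 lower, with 31 named genes. The limit on the single agents is one of size, and 11 of the 40 had passed limma with TNFα alone in the same direction (6 higher and 5 lower), 7 of them in named genes (Emp2, Lrrc8b, Tm4sf1, Plin1, Prss23, Ptgis and Trib2). With U0126 alone 0 passed. The median fold of those higher was 1.58 with the combination, 1.25 with TNFα and 1.19 with U0126, and that of those lower was 0.61, 0.813 and 0.862. Most single-agent values lay on the same side of DMSO as the combination, with both agents on that side in both experiments for 13 of the 19 and 15 of the 21. Against TNFα alone 0 of the 19 and 3 of the 21 passed limma, and against U0126 alone 4 and 9 (1.24% of all probe sets did, 0.831% higher and 0.406% lower). The combination went beyond the sum of the single log2 changes in both experiments in 5 of the 19 and 15 of the 21. The counts by side and by sum are a description only. The class was chosen on these same values, and all the comparisons share the DMSO arrays. No probe set passed the interaction test of limma, in which 0 of 31042 had an adjusted p under 0.05 (2833 at an unadjusted p under 0.05), and the smallest adjusted p in the class was 0.499. The single-agent limit places genes by small margins. Lrrc8b (1.442-fold) and Scara3 (1.447-fold) were just inside by their largest single-agent fold, and Sema6d (1.451-fold) and Cdh13 (1.454-fold) were just outside. Where an array is left out, the fold limits that use its treatment apply to 1 experiment only, a looser rule. With 1 array left out the class held 7 probe sets without U0126 and TNFα replicate 2, 11 without replicate 1, 10 without DMSO replicate 2, 228 without DMSO replicate 1, and 80 and 71 without TNFα replicates 1 and 2.

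**Figure D4:**
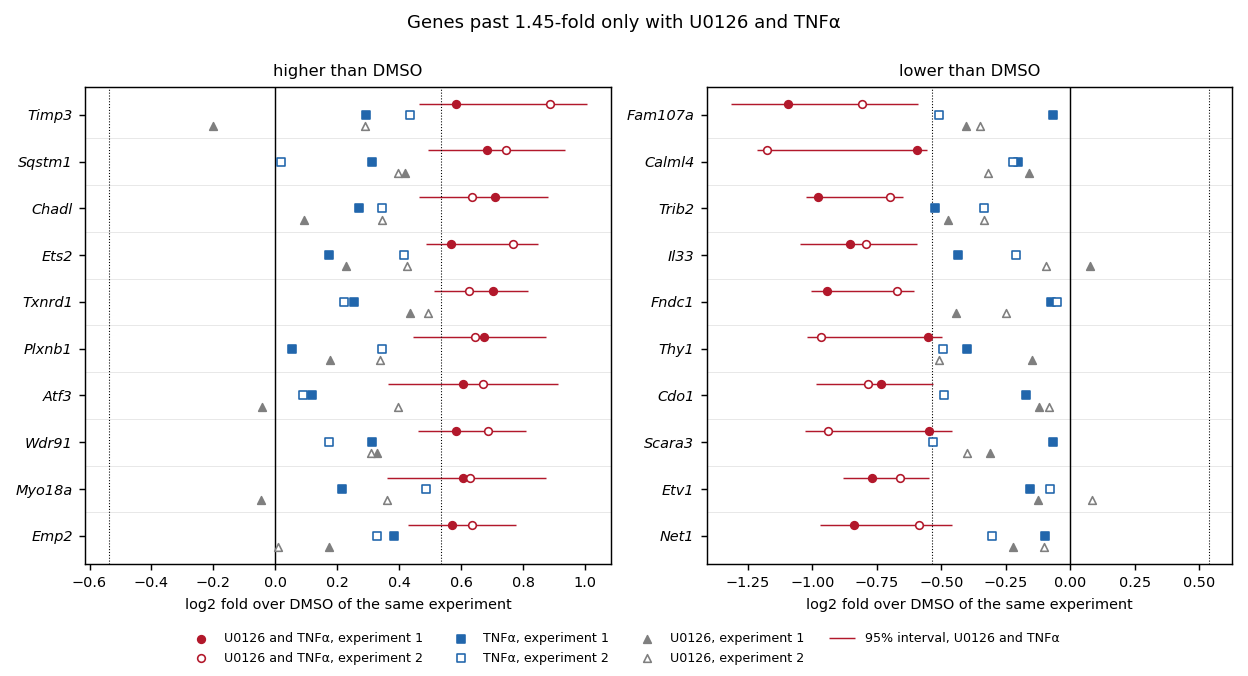
Genes past the fold threshold (dotted lines) from DMSO in both experiments with U0126 and TNFα but not with either agent alone, the 10 largest in each direction, as log2 fold over the DMSO array of the same experiment (x axis). Filled and open symbols are experiments 1 and 2, and the red line is the limma 95% interval of the combination. The circles lie outside the dotted lines and the squares and triangles inside, most of them on the same side of 0 as the circles.

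Timp3, the matrix-bound inhibitor of metalloproteinases and aggrecanases, was the highest of the combination-only rises and was found by 3 probe sets. It read 2178 and 585 with U0126 and TNFα, 1779.9 and 428 with TNFα alone, 1264 and 387 with U0126 alone and 1453 and 316 with DMSO. The combination was the highest of the 4 treatments in each experiment, with every treatment brighter in experiment 1, and its log2 fold change was 0.74 ± 0.11. Sqstm1, an autophagy receptor, and Txnrd1, which recycles thioredoxin, are genes of the NRF2 list. Sqstm1 read 2079 and 1782 with the combination, 1609 and 1077 with TNFα alone, 1731 and 1399 with U0126 alone and 1294 and 1063 with DMSO, and Txnrd1 read 2691 and 2691 with U0126 and TNFα, 1970.4 and 2036 with TNFα alone, 2232 and 2458 with U0126 alone and 1652 and 1745 with DMSO. U0126 alone was the next highest in both genes in both experiments. Atf3, a stress-induced factor, had combination folds of 1.52 and 1.59, TNFα folds of 1.08 and 1.06 and U0126 folds of 0.971 and 1.32. Ets2, a target of ERK phosphorylation, Chadl, a leucine-rich matrix protein, the semaphorin receptor Plxnb1, Wdr91, Myo18a and Emp2 were 1.59-fold, 1.59-fold, 1.58-fold, 1.55-fold, 1.54-fold and 1.52-fold over DMSO, with single-agent mean folds from 1.07 to 1.28. The 10 genes had 13 other probe sets, of which 7 rose too, while 2 of Sqstm1 and 1 of Myo18a were below DMSO without passing. A rise alone does not place a probe set in the class. In experiment 2, U0126 alone raised another probe set of Txnrd1 1.62-fold. TNFα alone raised others of Chadl and Emp2 1.63-fold and 1.67-fold there. The brightest probe sets of Sqstm1 (combination folds of 1.39 and 1.33) and Timp3 (1.40 and 1.37) stayed under the fold threshold.

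Among those past the threshold below DMSO only with the combination, Fam107a read 342 and 471 with U0126 and TNFα, 699 and 580.4 with TNFα alone, 553 and 647 with U0126 alone and 731 and 825 with DMSO (log2 fold change -0.95 ± 0.15). The nuclear alarmin Il33 read 1266 and 2929 with the combination, 1692 and 4379.7 with TNFα alone, 2412 and 4748 with U0126 alone and 2286 and 5069 with DMSO. U0126 alone gave folds of 1.06 and 0.937, TNFα alone 0.74 and 0.864 and the combination 0.554 and 0.578, the last at -0.82 on the log2 scale. Etv1, a close relative of Etv5, was found by 3 probe sets, and the one that fell most read 98.9 and 134 with U0126 and TNFα, 151 and 199.7 with TNFα alone, 154 and 223 with U0126 alone and 168 and 211 with DMSO. Its folds were 0.587 and 0.633 with the combination. TNFα alone gave 0.897 and 0.947, U0126 alone 0.916 and 1.06, and this was the 1 probe set of the class that passed limma against both TNFα and U0126 alone. The pseudokinase gene Trib2 read 861 and 1034 with the combination and 1694 and 1679 with DMSO, with TNFα and U0126 alone at 0.743-fold and 0.756-fold, and it passed limma with TNFα alone too (adjusted p = 0.0323). Fndc1, a fibronectin-domain gene, read 488 and 1037 with the combination, 889 and 1596 with TNFα alone, 689 and 1389 with U0126 alone and 936 and 1652 with DMSO. The epidermal growth factor receptor gene Egfr belonged here by another of its probe sets, and its brightest probe set read 1206 and 2066 with the combination, 1967 and 3286 with TNFα alone, 1353 and 2521 with U0126 alone and 1717 and 3499.8 with DMSO (limma adjusted p = 0.0149 against DMSO and 0.0443 against TNFα). The surface protein Thy1, a marker of fibroblasts, the cysteine dioxygenase Cdo1, Calml4, Net1 and Scara3 were 0.591-fold, 0.591-fold, 0.542-fold, 0.61-fold and 0.598-fold of DMSO. Plin1, an adipocyte marker, and Cdo1 were far brighter in experiment 2 under every treatment, where the summed adipocyte markers were brighter too. Of 8 other probe sets of the 10 genes with the largest falls here, 3 fell too and 5 were lower without passing.

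**Figure D5:**
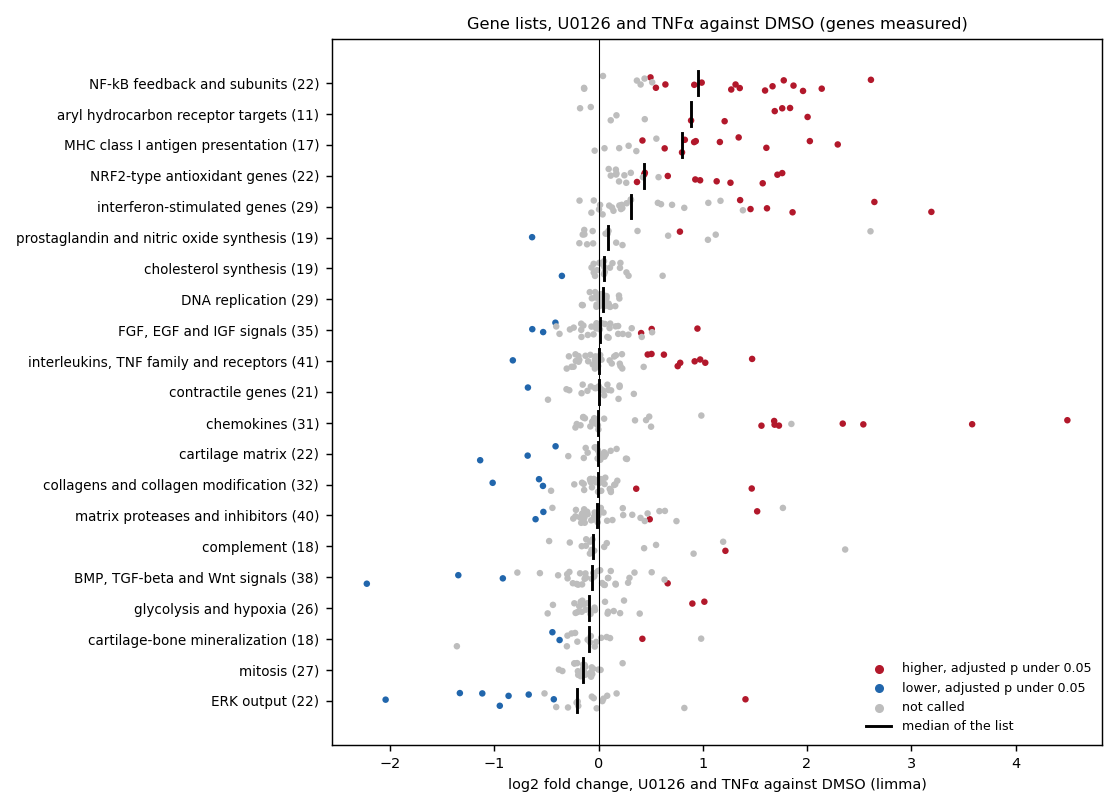
Each measured gene of 21 gene lists, by its log2 fold change in U0126 and TNFα against DMSO (limma, x axis), with lists ordered by their median (black bars) and the number measured in parentheses. Red and blue points passed limma higher and lower. The NF-κB list has the highest median, 0.95, and the ERK output list the lowest, -0.21.

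In several lists the number of genes that passed was small. These calls were lost without U0126 and TNFα replicate 2 and also without DMSO replicate 2. The shares called were 16.7% in cartilage-bone mineralization and 15.6% in collagens and collagen modification, against 3.81% of all genes. They were 10.5% in prostaglandin and nitric oxide synthesis and 7.69% in glycolysis and hypoxia. Cholesterol synthesis had 5.26%, contractile genes 4.76%, and mitosis and DNA replication 0%. Among DNA replication genes 0 of 29 passed and 27 had a 95% interval inside the fold threshold, and among mitosis genes 0 of 27 passed and 14 had one. These are 93.1% and 51.9%, against 89.8% of all genes. Of the mitosis genes, 18 of 27 were lower than DMSO in both experiments, against 4888 of all 14217 genes. Their median was -0.14 (all genes -0.01), with TNFα alone at a median of 0.33 and U0126 alone at -0.46. Of 19 cholesterol synthesis genes 18 had an interval inside the fold and Stard4, a sterol carrier, fell (-0.35, limma adjusted p = 0.0482). The signs of the medians of the DNA replication, cholesterol synthesis, contractile and FGF, EGF and IGF lists were positive with array centring and negative with quantile normalization, and those of chemokines and complement turned the other way, all with values under 0.1 in size. Of 26 glycolysis and hypoxia genes 2 rose, Egln3 and Adm (1.87-fold and 2.02-fold, limma adjusted p = 0.0237 and 0.0488), where 6 rose with TNFα alone (4.21% of all genes did). Of 32 collagens and collagen-modifying genes 2 rose and 3 fell, with the basement membrane collagen Col18a1 at 2.77-fold and Col8a1 at 0.495-fold (limma adjusted p = 0.0177 and 0.0435). Of 21 contractile genes Mylk alone fell (0.625-fold, limma adjusted p = 0.0313). In prostaglandin and nitric oxide synthesis Ass1 rose and the prostacyclin synthase Ptgis fell (0.643-fold, limma adjusted p = 0.00999) out of 19, and the phospholipase Pla2g2a, at 6134 and 13163 against 506 and 4285, did not pass (adjusted p = 0.0943). Among 18 genes of cartilage-bone mineralization Slc20a1 rose and Pth1r and Dmp1 fell (1.34-fold, 0.772-fold and 0.736-fold, limma adjusted p = 0.0339, 0.0322 and 0.0485), and Dmp1 was dim on all arrays.

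The genes that the study names for these arrays were chosen on them, so they are no independent evidence of a direction. Among those not yet given, Cpxm1, a carboxypeptidase-like protein, read 3157 and 2089 with U0126 and TNFα and 1442 and 1357 with DMSO (1.84-fold, limma adjusted p = 0.0289), and Erap1, Tap2 and Adam17 rose 1.55-fold, 1.91-fold and 1.41-fold (limma adjusted p = 0.0377, 0.0107 and 0.0386). The tissue plasminogen activator Plat (1788 and 1517 against 1093 and 1026), osteopontin Spp1 (5079.5 and 2493 against 2068 and 1564) and Cxcl1 (3702 and 1384 against 587 and 671) were higher than DMSO in both experiments and did not pass (limma adjusted p = 0.121, 0.198 and 0.0603). C1s, Cyp4b1, Serpinb2, C4bpa, Ctsc, Cxcl3, Bmp2, Ramp2, Amigo2 and Vegfa likewise had mean folds above 1 that did not pass, from 1.15 to 1.88. Cacna2d3 (0.987-fold), Cxcl12 (1.04-fold) and Cgref1 (0.831-fold) had 95% intervals of -0.25 to 0.21, -0.36 to 0.47 and -0.49 to -0.05 on the log2 scale. The probe sets of Cxcl12 differed, and the folds that the study lists match another one. That probe set read 1566 and 2597 with the combination and 1161 and 1991 with DMSO. Its log2 fold change was 0.408, with a 95% interval of 0.0831 to 0.732, and it did not pass (limma adjusted p = 0.155).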

How the data were processed

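Probe set intensities of 8 Affymetrix RAT230_2.0 arrays (4 treatments in 2 independent experiments) were taken as deposited by the authors, on a linear scale from 15.2 to 34845. The submitters' processing notes name RMA without a version, and the study's methods describe normalization in other software, so the background correction is known only from the notes. Of 31099 probe sets, 57 controls were left out. Log2 values of the deposited intensities were centred on each array's median. limma 3.58.1 (R 4.3.3) fitted treatment and experiment to all 8 arrays, with 3 residual degrees of freedom, Benjamini-Hochberg adjustment over 31042 probe sets and a threshold of 0.05. The fold threshold, 0.54 on the log2 scale, follows the study's methods. Arrays were paired by the replicate numbers in the labels because the methods compare treatments within an experiment, and deviations of same-numbered arrays correlated at 0.728 to 0.829. Gene names came from the platform annotation: 20826 probe sets had 1 symbol, 436 several and 9780 none, giving 14217 genes, each counted in the lists by its brightest probe set.

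Genes described were those with the 15 largest rises and falls that passed and went 1 way in both experiments, the 10 in each direction of each class, up to 4 members per list with the smallest adjusted p, and genes the study names. The members and lists were chosen with earlier results of these data known. The fit was checked on simulated data. Promoters came from RefSeq (GRCr8), with an entry for 27457 genes. No depth applies to arrays, and their number limits the precision. Alternatives were quantile normalization, no centring, no block, a filter on dim probe sets, other prior variances, other fold thresholds, genes in place of probe sets, only the 4 arrays compared, and each array left out.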

Additional observations from a re-analysis of the deposited data

How the results depend on the processing

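With 1 array left out, the count of probe sets that passed limma between U0126 with TNFα and DMSO ran between 89 (without U0126 and TNFα replicate 2) and 1061 (without either TNFα array), against 969 with all. The fold count ran between 910 and 1654, against 519, the count of returned probe sets between 121 and 622, against 79 and 47, the count with the 95% interval inside the fold threshold between 40 and 491, against 70, and the combination-only count between 7 and 228, against 40. Left-out arrays left a treatment with 1 sample, which was assumed to vary like the others. The fold rules of comparisons with that treatment then rested on 1 experiment and were met more easily. The fold, returned, interval-based and combination-only counts with an array left out are therefore not under the same rule as those with all arrays. With no replicate block, ignoring the pairing, 8 probe sets passed, all among the 969, and the returned, interval-based and combination-only counts were 0, 0 and 0. Of 102 described probe sets that passed, 6 passed with no block: Ahrr, Aldh3a1, Nfkb2, Nfkbia, Nqo1 and Tnfaip3.

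Counted over genes in place of probe sets, the same 5 counts were 541, 312, 71, 38 and 22, by construction fewer. At 1.3-fold the fold, returned, interval-based and combination-only counts were 989, 238, 113 and 67, and at 2-fold they were 140, 39, 20 and 9. The other alternatives kept every count within 1.5 times: quantile normalization gave 834 passing probe sets, no centring 960, the filter on dim probe sets 878, a trended prior 1015, a robust prior 985 and only the 4 arrays compared 651. No described value turned its direction after passing the test. For changes other than the left-out arrays and the block, the cause was not tested. The median of all probe sets was -0.02 on the log2 scale under each scaling.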

Other observations

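U0126 alone moved few probe sets past the test, 18 of 31042 (0.058%), all higher than DMSO, and 90 by the fold threshold in both experiments (0.29%), 56 higher (0.18%) and 34 lower (0.11%). Of the 56, 33 were past the threshold in both experiments with U0126 and TNFα as well and 13 were within it in both. Of the 34, 14 were past it and 9 within it. The comparisons share the DMSO arrays, so these counts are a description.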
